A study of Mus musculus with 3 samples.

Results

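The 8 genes described here carry the transforming growth factor beta (TGF-beta) signal: the ligand Tgfb1 (ENSMUSG00000002603), the receptors Tgfbr1 (ENSMUSG00000007613) and Tgfbr2 (ENSMUSG00000032440), the transducers Smad2 (ENSMUSG00000024563), Smad3 (ENSMUSG00000032402) and Smad4 (ENSMUSG00000024515), and the inhibitors Smad7 (ENSMUSG00000025880) and Ski (ENSMUSG00000029050). They were chosen by symbol with earlier results of these data known. All 8 were found, each on 1 row, among the 33696 gene rows of the deposited matrices. The matrices hold single-cell RNA counts from the spleens of mice in 3 libraries, 1 each from a group labelled Chow, a group labelled MASH (metabolic dysfunction-associated steatohepatitis, a fatty liver disease with inflammation) and a group labelled MASH-Phe-free, called Phe-free here. The series text describes C3H mice given a high-fat diet, then a fat-rich diet lacking methionine and choline to bring on the liver disease, and then the mouse liver cancer line HCA-1 under the skin, but it describes RNA from tumours. The diets, the sex, the age and the number of mice behind each spleen library, whether those mice bore tumours, and how phenylalanine was withheld are not given in the sources used here.

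Each library held between 16495 and 19219 barcodes and between 138787602 and 160115282 unique molecular identifiers (UMIs, each counting 1 captured RNA molecule), and 15669 cells of the Chow library, 17333 of MASH and 15560 of Phe-free passed the filters. Between 72 and 102 barcodes occurred in both libraries of a pair and none in all 3. Cells were clustered without the 8 genes and without 40 further genes of the pathway, and 13 classes with at least 50 cells in every library were named from marker genes, the suffix "-like" marking that the name rests on markers. All markers of a class, 9 to 12 in number, were higher in it than in the other cells, except 1 of 9 in cDC2-like cells of every library and in cDC1-like cells of the MASH and Phe-free libraries, and no marker was at 0. Marco, known from macrophages outside the red pulp, was among the 10 leading genes of 4 clusters. Clusters of 63, 77 and 47 and of 44, 80 and 41 cells stayed unnamed and were left out, and clusters of 17, 39 and 13 and of 11, 9 and 4 cells were counted with the red pulp macrophage-like cells. Orders of classes below are among the 13 classes alone. RNA free in the suspension was estimated to make up at most 6.38% of UMIs in 11 classes, between 10.02% and 12.51% in cDC2-like cells and between 9.57% and 15.6% in platelet or megakaryocyte-like cells. Levels are UMIs of a gene per 1000000 UMIs of the class (counts per 1000000, CPM), always in the order Chow, MASH, Phe-free. With 1 library per group there was no replicate, no difference between groups was tested, and the 95% intervals, in square brackets, cover only counting error.

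TGF-beta is made as a latent complex that must be activated outside the cell. The active ligand joins the type II receptor Tgfbr2 to the type I receptor Tgfbr1, which phosphorylates Smad2 and Smad3. These pair with Smad4 and act on genes in the nucleus, while Smad7 blocks the receptor and Ski holds the Smad complex in check, and transcription of Smad7 is itself raised by the signal. In lymphoid organs the pathway is known for restraining T cells and NK cells, for supporting regulatory T cells and for switching B cells to immunoglobulin A.

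Promoters are shown for the 4 members whose level differed most between classes. RefSeq promoter entries (build GRCm38.p6, an older build than the GRCm39 of the counts) matched 5 of the 8 members. The 250 bases before the most upstream start site in that table follow, 5′ to 3′ on the gene's strand, with capitals on GGGCGG, the GC box bound by Sp1-type factors, and on CAGAC, a core Smad-binding sequence, each on either strand.
Tgfb1, plus strand of chr7:25686752-25687001: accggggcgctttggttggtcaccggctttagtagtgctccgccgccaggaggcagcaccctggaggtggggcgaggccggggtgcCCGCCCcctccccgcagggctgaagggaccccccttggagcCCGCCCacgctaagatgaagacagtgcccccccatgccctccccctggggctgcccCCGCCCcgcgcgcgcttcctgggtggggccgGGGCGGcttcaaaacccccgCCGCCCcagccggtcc
Tgfbr1, plus strand of chr4:47352972-47353221: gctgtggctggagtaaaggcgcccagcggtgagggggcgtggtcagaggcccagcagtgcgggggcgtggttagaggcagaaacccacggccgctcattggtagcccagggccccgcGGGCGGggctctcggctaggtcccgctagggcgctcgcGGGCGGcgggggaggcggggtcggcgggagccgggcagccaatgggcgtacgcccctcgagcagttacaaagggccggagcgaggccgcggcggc
Tgfbr2, minus strand of chr9:116175364-116175613: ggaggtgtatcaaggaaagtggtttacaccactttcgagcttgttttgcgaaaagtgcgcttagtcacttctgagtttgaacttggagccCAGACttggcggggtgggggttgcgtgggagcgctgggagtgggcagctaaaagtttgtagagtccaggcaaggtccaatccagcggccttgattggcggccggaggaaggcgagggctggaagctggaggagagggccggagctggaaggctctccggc
Smad3, minus strand of chr9:63757995-63758244: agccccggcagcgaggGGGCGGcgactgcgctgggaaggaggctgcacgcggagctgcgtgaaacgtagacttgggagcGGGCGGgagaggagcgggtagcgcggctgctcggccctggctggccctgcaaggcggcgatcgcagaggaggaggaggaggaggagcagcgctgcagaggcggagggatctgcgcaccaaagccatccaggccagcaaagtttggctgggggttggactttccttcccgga
The Tgfb1 window held 5 GC boxes, those of Tgfbr1 and Smad3 held 2 each, and that of Tgfbr2 held none. Of all 32851 promoter windows of this length, 32.7% held a GC box. The CAGAC core was in the Tgfbr2 window, 160 bases before the start, and in 42.2% of all windows. No window of the 4 held the palindrome GTCTAGAC (0.2% of all windows) or the AP-1 site TGANTCA (6.7%). The GC content was 75.2% for Tgfb1, 74.8% for Tgfbr1, 58.4% for Tgfbr2 and 69.2% for Smad3, beside a median of 52.4%.

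The first question was which spleen cells carried each gene. Tgfb1, both receptors and Smad3 differed most between classes, and Smad2 and Smad4 least. On a log2 scale (CPM + 10), the highest and lowest class means lay 4.28 apart for Tgfb1, 4.08 for Tgfbr1, 3.87 for Tgfbr2, 3.26 for Smad3, 2.66 for Smad7, 2.36 for Ski, 2.25 for Smad4 and 2.11 for Smad2. The median over 10483 genes was 2.45. The 4 widest members exceeded between 71.7% and 86.3% of these genes, while Smad2 exceeded 37.3%. The lowest Tgfb1 class was plasma-like cells, whose UMIs were mostly of immunoglobulin genes. With immunoglobulin, haemoglobin, mitochondrial and ribosomal protein genes left out of the total, the outer Tgfb1 means were 499.9 and 38.3 CPM. Those of Tgfbr2 were then 311.8 and 8.9 CPM, so the order of these members depends on the total used.

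**Figure D1:**
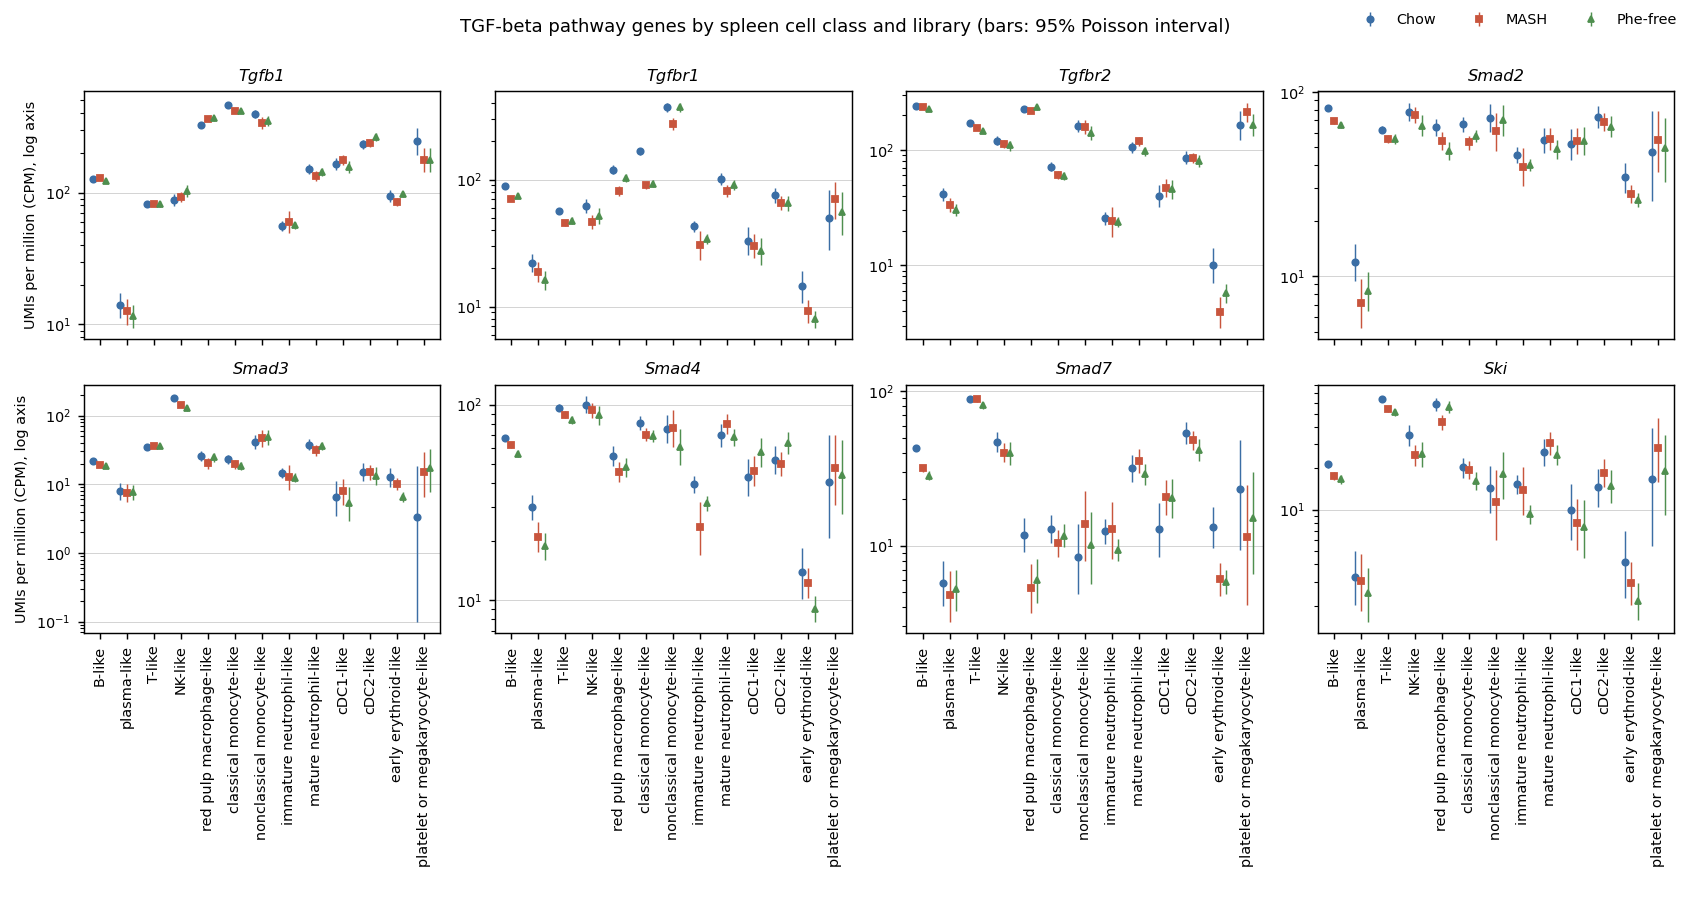
Levels of the 8 genes (CPM, log axis) in 13 classes; symbols are the 3 libraries and bars are 95% Poisson intervals, the lowest drawn from 0.1 CPM. Of these classes, Tgfb1 is highest in classical monocyte-like cells (411 to 463 CPM), Tgfbr1 in nonclassical monocyte-like cells (275 to 371 CPM), Smad3 in NK-like cells (129 to 177 CPM) and Smad7 in T-like cells (81.2 to 89.4 CPM).

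The ligand Tgfb1 was highest in monocytes and macrophages. Classical monocyte-like cells held 463, 411 and 417 CPM, nonclassical monocyte-like cells 392, 337 and 347 CPM, and red pulp macrophage-like cells 324, 363 and 364 CPM. The range over the libraries in classical monocyte-like cells lay above that of every other class, and the ranges of the other two overlapped. cDC2-like cells followed with 232, 235 and 263 CPM. Platelets are a known store of the TGF-beta protein, and the platelet or megakaryocyte-like cells held 244, 177 and 177 CPM, a range that overlapped those of cDC2-like and cDC1-like cells. B-like cells held 126, 128 and 123 CPM and T-like cells 82.1, 81.8 and 82.0 CPM, nearly the same in all 3 libraries. Plasma-like cells were lowest at 13.98, 12.6 and 11.6 CPM. In these cells immunoglobulin genes took 58.9%, 61.6% and 60.5% of all UMIs, and with immunoglobulin, haemoglobin, mitochondrial and ribosomal protein genes left out of the total they held 40.8, 38.7 and 35.4 CPM, still the lowest of the 13 classes. Since B-like cells were the most numerous class, they supplied between 19.9% (Phe-free) and 33.1% (Chow) of all Tgfb1 UMIs, and classical monocyte-like cells supplied 17.4%, 19.6% and 21.4%.

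Tgfbr1, the kinase that passes the signal on, stood out in nonclassical monocyte-like cells, the patrolling monocytes, at 369.6, 275 and 371 CPM. No other of the 13 classes reached this range. Plasmacytoid dendritic-like and eosinophil-like cells, with fewer than 50 cells in every library, reached it in part, at 320.1, 296 and 251 CPM and 144, 462 and 257 CPM, the last from 2, 33 and 5 UMIs. The nearest of the 13, classical monocyte-like cells, held 167, 89.98 and 92.9 CPM, with the Chow library apart from the other two. Red pulp macrophage-like cells held 119, 81.6 and 103 CPM, mature neutrophil-like cells 101, 81.4 and 90.4 CPM and B-like cells 89.6, 70.3 and 74.8 CPM. These neighbours overlapped in order, as did all classes from classical monocyte-like down to T-like cells (56.6, 45.3 and 47.6 CPM). After every cell was thinned to 1000 UMIs, a Tgfbr1 UMI was expected in 30.6%, 25.3% and 30.3% of nonclassical monocyte-like cells and in 0.64%, 0.92% and 1.04% of early erythroid-like cells. The unthinned shares were 86.1%, 82.9% and 79.6% and 19.8%, 14.4% and 18.9%. Cells under 1000 UMIs, left out of the thinned shares, numbered 6, 3 and 3 in the first class and 15, 52 and 72 in the second.

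Tgfbr2, which binds the ligand first, had another order. B-like cells held 239, 234 and 224 CPM and red pulp macrophage-like cells 228, 219 and 235 CPM, with overlapping ranges above all other classes. T-like cells held 170.1, 154 and 146 CPM, NK-like cells 121, 112 and 109 CPM, nonclassical monocyte-like cells 162, 158 and 139.8 CPM and classical monocyte-like cells 71.4, 60.9 and 59.5 CPM. Classical monocyte-like cells, first for the ligand, were thus ninth of 13 for this receptor. Early erythroid-like cells were lowest at 10.1, 3.95 and 5.69 CPM, with immature neutrophil-like cells next at 25.6, 24.1 and 23.9 CPM. Of all Tgfbr2 UMIs, 54.4%, 54.7% and 49.3% came from B-like cells and 23.8%, 20.5% and 17.7% from T-like cells.

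Of the transducers, Smad3 stood highest in NK-like cells. NK-like cells held 177, 143 and 129 CPM, and the next class, nonclassical monocyte-like cells, 41.4, 46.96 and 48.2 CPM. The lowest NK-like library lay above the highest library of any other of the 13 classes, though not above every smaller class: stroma or endothelium-like cells (25, 21 and 20 cells) held 194, 54.5 and 26.7 CPM and eosinophil-like cells 144, 126 and 103 CPM, from 22, 11 and 5 UMIs and 2, 9 and 2 UMIs. A Smad3 UMI was found in 65.9%, 63.9% and 57.5% of NK-like cells and in 12.04%, 12.1% and 13.7% of plasma-like cells, which held more UMIs per cell (medians of 7247, 7482 and 6984 in NK-like cells and 16857, 19901 and 16209 in plasma-like cells). At 1000 UMIs per cell the expected shares were 16.4%, 13.9% and 13.5% and 0.7%, 0.97% and 1.27%. Immunoglobulin genes took 58.9%, 61.6% and 60.5% of the plasma-like UMIs, so thinning left fewer UMIs of other genes there. With immunoglobulin, haemoglobin, mitochondrial and ribosomal protein genes left out of the total, plasma-like cells held 23.1, 23.0 and 23.5 CPM. On that total NK-like cells held 208.9, 166.4 and 155.2 CPM. T-like cells held 35.1, 36.2 and 36.4 CPM and B-like cells 21.5, 19.3 and 18.7 CPM. cDC1-like cells were lowest at 6.42, 7.98 and 5.41 CPM. In platelet or megakaryocyte-like cells the counts were 1, 8 and 9 UMIs, too few to place the class.

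Smad2, the other receptor-activated transducer, and Smad4, the shared partner, were present at similar levels in most classes. Smad2 was at 77.9, 74.97 and 65.4 CPM in NK-like cells, 81.7, 69.3 and 66.1 CPM in B-like cells and 62.3, 55.6 and 55.4 CPM in T-like cells, and each of the 10 highest classes overlapped its neighbour. Immature neutrophil-like (45.4, 39.1 and 40.1 CPM), early erythroid-like (34.3, 27.9 and 26.0 CPM) and plasma-like cells (11.96, 7.17 and 8.28 CPM) lay below them without overlap. Smad4 was at 99.8, 93.4 and 88.3 CPM in NK-like cells and 96.6, 88.8 and 83.1 CPM in T-like cells, and at 13.9, 12.3 and 9.06 CPM in early erythroid-like cells, the lowest class.

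The inhibitors were highest in T-like cells. Smad7 was at 88.9, 89.4 and 81.2 CPM there, above every other class, followed by cDC2-like cells at 53.7, 48.1 and 41.9 CPM, NK-like cells at 47.3, 40.1 and 39.8 CPM and B-like cells at 43.3, 31.7 and 28.5 CPM. Monocyte-like and macrophage-like cells, the highest classes for the ligand, ranked eighth or lower of 13 for Smad7, with 12.9, 10.4 and 11.6 CPM in classical monocyte-like and 11.8, 5.35 and 5.96 CPM in red pulp macrophage-like cells. Ski was at 63.9, 53.7 and 51.1 CPM in T-like and 58.3, 43.3 and 55.6 CPM in red pulp macrophage-like cells, the pair of classes whose ranges overlapped and lay above the others. T-like cells supplied 44.8%, 48.0% and 40.7% of all Smad7 UMIs and 46.3%, 42.1% and 35.1% of all Ski UMIs.

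Within the B-like cells the maturation stages differed. Transitional B-like cells, recent arrivals from the marrow, held Tgfb1 at 231, 239.6 and 246 CPM, and follicular B-like cells at 141, 143 and 141 CPM, with no overlap. Marginal zone B-like cells, which face blood-borne antigens, held 103, 94.2 and 100.04 CPM. Smad3 was at 34.4, 31.0 and 32.8 CPM in marginal zone B-like and 10.46, 10.7 and 10.48 CPM in follicular B-like cells. Smad7 ran the other way, at 35.5, 26.2 and 25.8 CPM in marginal zone B-like and 69.7, 51.5 and 43.5 CPM in follicular B-like cells. Tgfbr2 was highest in follicular B-like cells at 292, 285 and 285 CPM and lowest of the B-like subsets in germinal centre B-like cells, the site of antibody affinity selection, at 121, 127 and 124 CPM. The germinal centre B-like cells numbered 65, 63 and 91, and their Smad3 counts were 1, 8 and 3 UMIs.

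Of the 3 T-like subsets compared, the regulatory T-like cells, which depend on TGF-beta, had the most Tgfbr1 and the least Tgfbr2. T-like clusters without a subset name were left out of this comparison. Among them, a cluster of 115, 236 and 162 cells had Ccl5 and Gzmk among its leading genes. Another, of 119, 132 and 92 cells, had Itgb8 among its leading genes. Tgfbr1 was at 103, 86.6 and 91.9 CPM in them, 48.7, 33.5 and 31.5 CPM in CD4 T-like and 41.6, 26.3 and 32.03 CPM in CD8 T-like cells. Tgfbr2 was at 133, 120.2 and 115 CPM, 207, 194 and 192 CPM and 175, 159 and 163 CPM in the same subsets. The subsets did not overlap for either receptor except that CD4 T-like and CD8 T-like cells overlapped for Tgfbr1. Smad3 was at 45.4, 43.5 and 43.96 CPM in regulatory T-like, 29.3, 28.3 and 24.8 CPM in CD4 T-like and 18.5, 18.5 and 12.6 CPM in CD8 T-like cells. Smad7 was highest in CD8 T-like cells at 105, 122 and 122 CPM, and Ski in CD4 T-like cells at 85.9, 73.2 and 71.4 CPM, overlapping regulatory T-like cells at 76.5, 66.8 and 63.6 CPM. Of the 13 ligand and activation genes of the pathway list, 3 lay above both other T-like subsets in regulatory T-like cells of every library, 4 overlapped them and 6 had under 20 UMIs in the 3 subsets together. The 3 were Itgb8, Itgav and Lrrc32. The share of all genes lying above in the same way was not counted, so these counts only describe the list. Itgav, the integrin chain that pairs with Itgb8, was at 109, 94.2 and 123 CPM in regulatory T-like and 36.6, 36.2 and 35.3 CPM in CD4 T-like cells. Itgb8, part of the integrin that frees the ligand, was at 40.7, 41.04 and 34.4 CPM in regulatory T-like and 0.64, 0.46 and 0.7 CPM in CD4 T-like cells. Lrrc32, which holds latent TGF-beta on the cell surface, was at 27.0, 29.2 and 23.98 CPM in regulatory T-like cells, and no Lrrc32 UMI was counted in CD4 T-like cells of any library, which allows up to 0.34, 0.43 and 0.65 CPM at the upper end of the interval.

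**Figure D2:**
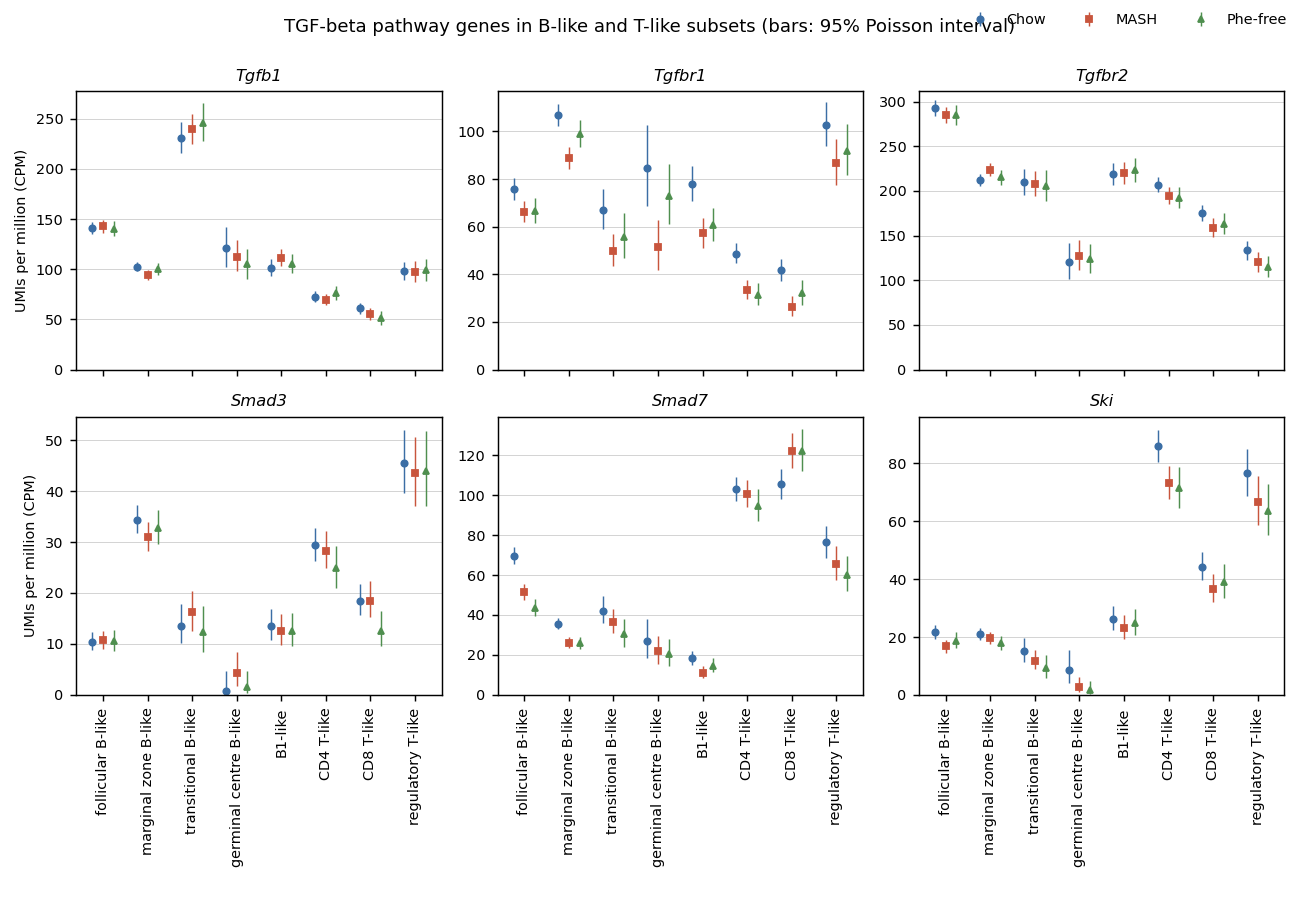
Levels of 6 of the 8 genes (CPM) in 5 B-like and 3 T-like subsets; symbols are the 3 libraries and bars are 95% Poisson intervals. Tgfb1 peaks in transitional B-like cells (231 to 246 CPM), and Smad3 is higher in marginal zone B-like (31.0 to 34.4 CPM) than in follicular B-like cells (at most 10.7 CPM).

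The genes most like each member over the 39 class and library values (13 classes, the same cells and library totals, log2 of CPM + 10) were found by Pearson's r as a description. For Tgfb1 they were Qki (0.923), Pip4k2a (0.918) and Ensa (0.915), and for Tgfbr1 Pcnx (0.918), Mef2a (0.909) and Stk10 (0.898). For Tgfbr2 they were Trim26 (0.894), Ptpn22 (0.886) and Itsn2 (0.882). The transducers gave Runx1 (0.957), Cdk19 (0.953) and Pum2 (0.936) for Smad2, Gab3 (0.902), Spata13 (0.878) and Ccl3 (0.874) for Smad3, and Pik3cd (0.942), Peli1 (0.942) and Klf2 (0.929) for Smad4. The inhibitors gave Satb1 (0.850), Socs1 (0.833) and Gramd1a (0.830) for Smad7 and Kif1b (0.867), Utrn (0.851) and Hif1a (0.834) for Ski. Among the members themselves r ran from 0.01 (Tgfb1 with Smad7) to 0.76 (Tgfbr2 with Ski).

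The next question was how the MASH library differed from the Chow library. A member was counted in a class when its CPM ratio was at least 1.5-fold either way, the interval excluded 1 and at least 20 UMIs were seen in both libraries together. Of 104 pairs of member and class, 102 had enough UMIs and 8 were past this limit, 1 higher and 7 lower in MASH. The same limit was passed by 9.98% of all gene and class pairs, 4.28% higher and 5.70% lower. Of the member pairs 0.98% were higher and 6.86% lower. Both directions together, the count of the members was not above the share among all genes. The lower pairs were Tgfbr1 in classical monocyte-like cells, Smad7 in red pulp macrophage-like cells, Smad2 in plasma-like cells, Smad4 in immature neutrophil-like cells, and Tgfbr1, Tgfbr2 and Smad7 in early erythroid-like cells. The higher one was Smad7 in cDC1-like cells.

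**Figure D3:**
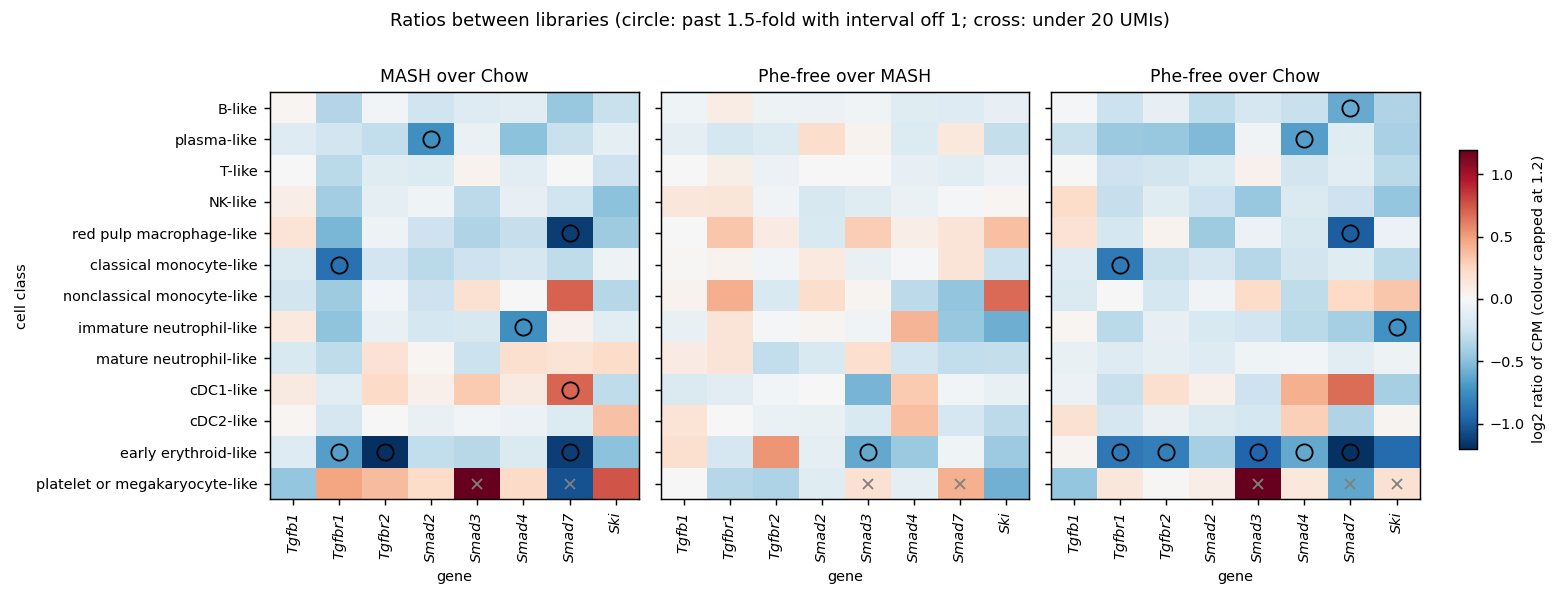
Log2 ratios of CPM for the 8 genes (columns) in 13 classes (rows), 1 panel per pair of libraries; circles mark pairs past 1.5-fold whose interval excludes 1, and crosses pairs under 20 UMIs. There are 8 circles in the MASH over Chow panel, 1 in the Phe-free over MASH panel and 10 in the last panel.

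Tgfbr1 in classical monocyte-like cells gave the narrowest interval among these. Its level was 167, 89.98 and 92.9 CPM, from 1169, 862 and 1078 UMIs, so that MASH over Chow was 0.539 [0.493–0.589]. The Chow library was high and the MASH and Phe-free libraries were close to each other. The share of these cells with a Tgfbr1 UMI was 79.5%, 68.05% and 63.1%, and 15.6%, 9.34% and 9.14% at 1000 UMIs per cell, with no cell left out. In nonclassical monocyte-like cells MASH over Chow was 0.744 [0.649–0.851], and in red pulp macrophage-like cells 0.683 [0.606–0.771].

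The lower Tgfbr1 level in MASH was shared by most classes. Against Chow, the MASH ratio was below 1 in 12 of 13 classes, and the interval lay below 1 in 9 of them. B-like cells held a ratio of 0.785 [0.7505–0.822], T-like cells 0.801 [0.744–0.863], NK-like cells 0.747 [0.622–0.898], mature neutrophil-like cells 0.808 [0.688–0.948] and immature neutrophil-like cells 0.715 [0.532–0.946]. The exception was the platelet or megakaryocyte-like class, with 15, 37 and 29 UMIs and a ratio of 1.39 [0.745–2.73]. Of 4735 genes with enough UMIs in all 13 classes, 5.77% were below 1 in at least 12 classes and 2.70% had intervals below 1 in at least 9. The median log2 ratio of Tgfbr1 over classes was -0.35, and the median over all genes of a class lay between -0.17 and 0.22. In Phe-free, 11 classes were below Chow and 7 had intervals below 1, against 19.6% and 13.2% of 4800 genes. Of 38 clusters with at least 50 cells in every library, 31 had less Tgfbr1 in MASH than in Chow, and 6.46% of the 4735 genes were lower in at least as many. The other members were lower in 29 (Smad2), 26 (Ski), 25 (Smad4), 24 (Tgfbr2), 23 (Smad7) and 20 (Smad3 and Tgfb1) of the 38. By class, Smad2, Ski and Tgfbr2 were below Chow in 10 of 13, Smad4 in 9 and Tgfb1 in 7. Smad3 was below in 9 and Smad7 in 7 of the 12 classes with enough UMIs. The share of all genes above 1 ran from 32.6% in plasma-like to 64.0% in platelet or megakaryocyte-like cells. The share of all genes with at least as many clusters or classes was not counted for these members, so their counts are a description only.

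**Figure D4:**
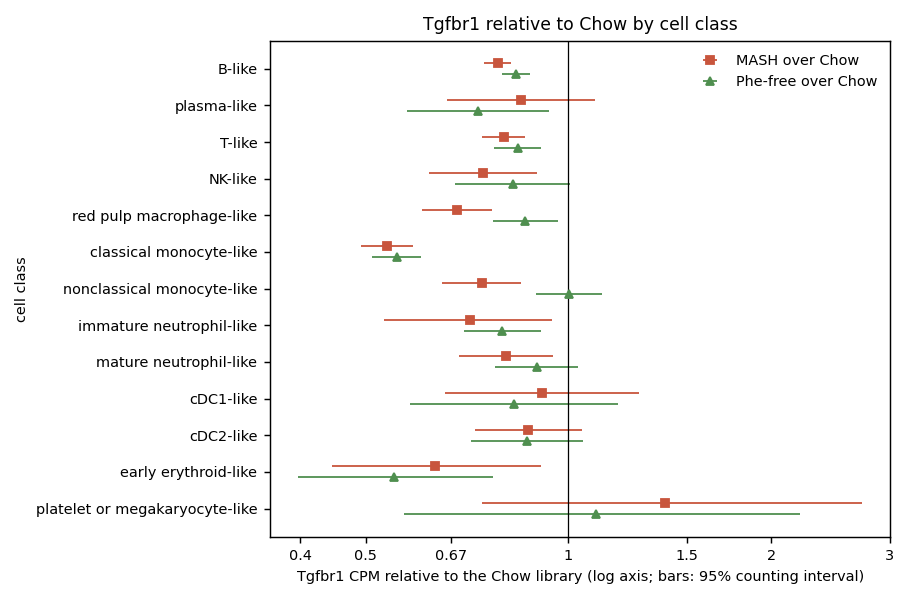
Tgfbr1 relative to the Chow library (ratio of CPM, log axis) in 13 classes for MASH and Phe-free; bars are 95% counting intervals. Classical monocyte-like cells sit at 0.539 in MASH and 0.556 in Phe-free, and nonclassical monocyte-like cells are at 0.744 in MASH and next to the line at 1 in Phe-free.

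The other members past the limit rested on fewer UMIs. Smad7 in red pulp macrophage-like cells was at 11.8, 5.35 and 5.96 CPM, or 61, 32 and 39 UMIs, a ratio of 0.453 [0.286–0.706] that was 0.734 in cells chosen one by one on markers. Smad4 in immature neutrophil-like cells was at 39.2, 23.6 and 31.4 CPM, where the MASH library held 77 cells, and the ratio was 0.602 [0.4297–0.824], or 0.685 in cells chosen on markers. Smad2 in plasma-like cells was at 11.96, 7.17 and 8.28 CPM, a ratio of 0.599 [0.405–0.876], or 0.875 in cells chosen on markers. Smad7 in cDC1-like cells was at 12.8, 20.8 and 20.4 CPM, a ratio of 1.62 [1.01–2.68] whose lower bound was just above 1, and 1.24 with clusters weighted alike.

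Early erythroid-like cells, the red cell precursors, numbered 91, 396 and 567, and 12.5% of all genes were past the limit in them. Tgfbr2 was at 10.1, 3.95 and 5.69 CPM in them, a MASH over Chow ratio of 0.393 [0.245–0.636]. Smad7 was at 13.3, 6.07 and 5.84 CPM, a ratio of 0.456 [0.307–0.682]. The class joined a cluster with a median of 2229 UMIs per cell and one with 78252, and the deeper one, with 36, 145 and 238 cells, gave most of the UMIs. When both clusters were given the same weight in each library, no early erythroid-like pair stayed past the limit, and the Tgfbr1 ratio became 1.27. In the shallow cluster, with 55, 251 and 329 cells, the Chow library held 0 Tgfbr1, 2 Tgfbr2 and 1 Smad7 UMIs. Within the deeper cluster alone all 3 pairs were past the limit, with MASH over Chow at 0.594 [0.416–0.857] for Tgfbr1, 0.323 [0.192–0.542] for Tgfbr2 and 0.434 [0.290–0.654] for Smad7.

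Phe-free over MASH showed almost no pair past the limit. Of 102 pairs with enough UMIs, 1 was counted, beside 7.41% of all gene and class pairs (3.88% higher and 3.54% lower), and 5.32% of all genes in early erythroid-like cells. It was Smad3 in early erythroid-like cells, at 12.7, 10.1 and 6.58 CPM, a ratio of 0.651 [0.502–0.846], and it was lost when the 2 clusters were weighted alike (1.18). The shallow cluster held 3 Smad3 UMIs in MASH and 12 in Phe-free, and within the deeper cluster the ratio was 0.598 [0.457–0.783]. Tgfbr1 was above MASH in 8 of 13 classes, with the interval above 1 in 3, beside 32.4% and 20.7% of 5515 genes with at least as many. In nonclassical monocyte-like cells the Phe-free library was at the Chow level, 1.35 [1.17–1.55] over MASH, and in red pulp macrophage-like cells the ratio was 1.26 [1.12–1.42]. In classical monocyte-like cells it was 1.03 [0.943–1.13], close to MASH. Ski in red pulp macrophage-like cells was at 58.3, 43.3 and 55.6 CPM, a ratio of 1.28 [1.09–1.51]. This class joined 16 clusters, and a different one was largest in each library. The part of this mix in the Tgfbr1 and Ski ratios of the class was not tested. Tgfbr2 was below MASH in 11 of 13 classes, with the interval below 1 in 3, beside 6.84% and 26.8% of these genes with at least as many.

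Phe-free over Chow shares the Chow library with the first comparison and the Phe-free library with the second, so its values are not separate support for either. Of 101 pairs with enough UMIs, 10 were past the limit, all lower in Phe-free, beside 9.21% of all gene and class pairs (4.05% higher and 5.17% lower). The pairs were Smad7 in B-like cells, Smad4 in plasma-like cells, Smad7 in red pulp macrophage-like cells, Tgfbr1 in classical monocyte-like cells, Ski in immature neutrophil-like cells, and Tgfbr1, Tgfbr2, Smad3, Smad4 and Smad7 in early erythroid-like cells. In early erythroid-like cells 10.1% of all genes were past the limit. None of the 5 pairs there was past it with both clusters weighted alike, where the shallow cluster held 0 to 2 Chow UMIs of each. All 5 were past it within the deeper cluster, from 0.395 [0.275–0.575] for Smad7 to 0.608 [0.436–0.861] for Smad4, and so was Ski there at 0.471 [0.245–0.965]. Tgfbr1 in classical monocyte-like cells had a ratio of 0.556 [0.512–0.605]. Smad4 in plasma-like cells was at 29.8, 21.2 and 18.9 CPM, a ratio of 0.634 [0.511–0.787], or 0.698 relative to the median of all genes in that class. Ski in immature neutrophil-like cells was at 15.3, 13.9 and 9.28 CPM, a ratio of 0.606 [0.478–0.768]. Smad3 in NK-like cells, its main class, was at 0.728 [0.645–0.8199] of Chow, short of the limit.

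Smad7 in B-like cells was lower than Chow in both other libraries. It was at 43.3, 31.7 and 28.5 CPM, with ratios to Chow of 0.732 [0.685–0.782] in MASH and 0.658 [0.6104–0.709] in Phe-free. The Phe-free ratio was no longer past the limit with clusters weighted alike (0.739), with doublets kept (0.681), with immunoglobulin and similar genes left out of the total (0.671) or relative to the median of all genes (0.685). The share of B-like cells with a Smad7 UMI was 27.1%, 22.6% and 20.4%, and 4.56%, 3.54% and 3.14% at 1000 UMIs per cell. Smad7 was at 69.7, 51.5 and 43.5 CPM in follicular B-like cells, a Phe-free ratio to Chow of 0.624 [0.556–0.701]. Marginal zone B-like cells were at 35.5, 26.2 and 25.8 CPM and B1-like cells at 18.3, 11.2 and 14.6 CPM. In T-like cells, where Smad7 was highest, the ratios to Chow were 1.01 [0.951–1.06] in MASH and 0.913 [0.858–0.971] in Phe-free. Over the 8 subsets, 3 pairs of member and subset were past the limit for MASH over Chow, beside 6.25% of all gene and subset pairs. They were Smad7 in B1-like cells (0.6103 [0.439–0.842]), and Tgfbr1 in germinal centre B-like (0.6097 [0.456–0.814]) and CD8 T-like cells (0.632 [0.5196–0.767]). For Phe-free over Chow 3 pairs were past it, beside 5.61%. They were Smad7 in follicular B-like, Ski in transitional B-like (0.6102 [0.362–0.999]) and Tgfbr1 in CD4 T-like cells (0.647 [0.543–0.767]). For Phe-free over MASH there was none, beside 4.63%.

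Of the 10 further inhibitors in the pathway list, 2 were past the limit and lower than Chow in B-like cells of MASH, beside 2.48% of all genes there. The same 2 were past it and lower in Phe-free, beside 3.18%. The share of all genes lower in both was not counted, and both comparisons use the same Chow library. Pmepa1, which removes Smad2 and Smad3 from the receptor and is raised by TGF-beta, was at 63.6, 29.9 and 30.4 CPM, ratios to Chow of 0.471 [0.442–0.502] and 0.478 [0.446–0.512]. Smurf2, a ubiquitin ligase that works with Smad7, was at 139.1, 86.9 and 82.97 CPM, ratios of 0.625 [0.601–0.6496] and 0.597 [0.571–0.623]. Both were lower than Chow in all 5 B-like subsets in both libraries, with Pmepa1 at 79.4, 37.6 and 38.5 CPM in marginal zone B-like, 57.4, 28.3 and 29.8 CPM in follicular B-like and 78.5, 35.5 and 37.3 CPM in B1-like cells. Skil, a relative of Ski, was at 37.8, 39.9 and 33.7 CPM in B-like cells and did not share this order. Smad6, a relative of Smad7 that acts mainly on the BMP branch, was higher in MASH at 0.16, 0.45 and 0.16 CPM, a ratio of 2.73 [1.16–7.14] from 8, 21 and 6 UMIs that was 1.55 [0.619–3.89] with clusters weighted alike, no longer past the limit, and is named here because of that value. In T-like cells Pmepa1 was at 66.2, 59.3 and 52.8 CPM and Smurf2 at 156, 105 and 90.9 CPM.

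**Figure D5:**
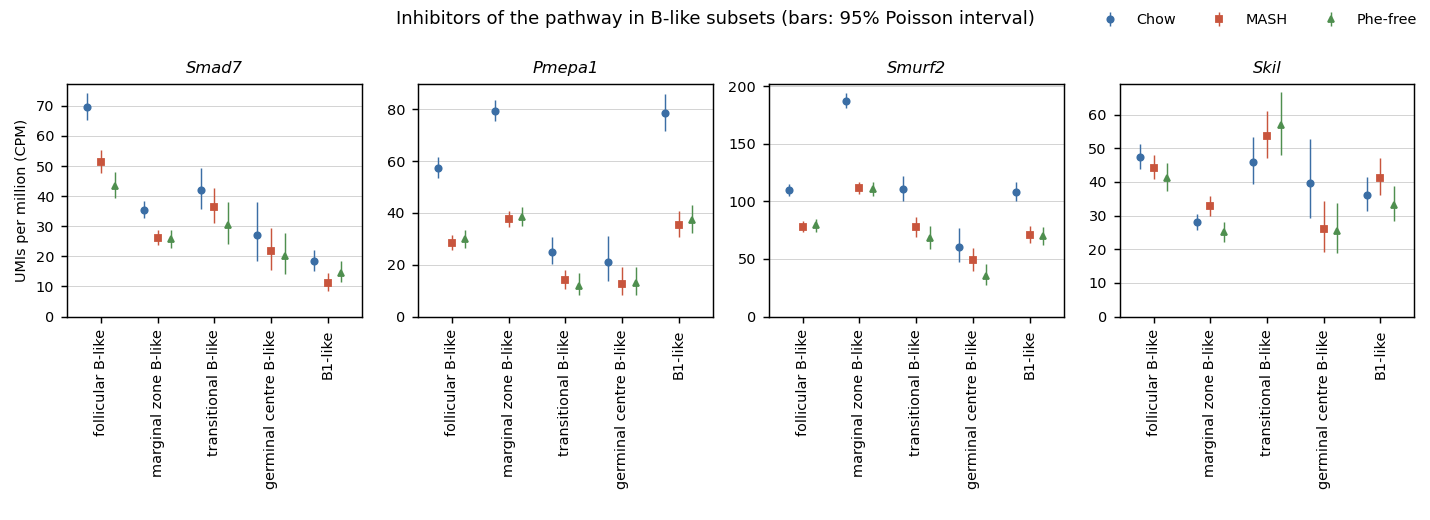
Levels (CPM) of 4 inhibitors in 5 B-like subsets; symbols are the 3 libraries and bars are 95% Poisson intervals. Chow is the highest library for Smad7, Pmepa1 and Smurf2 in all 5 subsets, and for Skil it is not highest in the marginal zone B-like, transitional B-like and B1-like subsets.

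Over the whole list of inhibitors and all classes, 3 of 105 pairs were past the limit higher and 18 lower for MASH over Chow (2.86% and 17.1%, beside 4.28% and 5.70% of all gene and class pairs), and 1 of 103 higher and 20 lower for Phe-free over Chow (0.97% and 19.4%, beside 4.05% and 5.17%). Against MASH, Phe-free had 3 higher and 2 lower of 106 (2.83% and 1.89%, beside 3.88% and 3.54%). This list and those below were chosen with earlier results of these data known, so their shares are a description only. Smurf2 was lower than Chow in 3 classes in MASH and in 6 in Phe-free, Pmepa1 in 5 and 4, and Nedd4l in 5 and 3. The other way, Nedd4l was past the limit higher in MASH in platelet or megakaryocyte-like cells (3.24). Pmepa1 was higher in Phe-free in cDC2-like cells (2.38, or 0.921 with clusters weighted alike). For Smurf2, nonclassical monocyte-like cells held 358, 200.01 and 219 CPM (MASH over Chow 0.558 [0.478–0.649]), plasma-like cells 23.6, 12.6 and 13.1 CPM (0.533 [0.401–0.704]) and classical monocyte-like cells 91.4, 63.1 and 59.03 CPM (Phe-free over Chow 0.646 [0.579–0.721]). Nedd4l, another ubiquitin ligase of the pathway, was at 45.5, 22.9 and 31.8 CPM in red pulp macrophage-like cells, a MASH over Chow ratio of 0.504 [0.405–0.624] that was 0.696 with clusters weighted alike, no longer past the limit. Tgif1, a transcriptional corepressor, was at 15.7, 10.4 and 7.06 CPM in mature neutrophil-like cells, a Phe-free over Chow ratio of 0.449 [0.289–0.693].

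Ligands and activators gave 3 higher and 10 lower of 61 pairs for MASH over Chow (4.92% and 16.4%, beside 4.28% and 5.70% of all pairs), 4 higher and 3 lower of 60 for Phe-free over MASH (6.67% and 5.0%, beside 3.88% and 3.54%), and 2 higher and 5 lower of 59 for Phe-free over Chow (3.39% and 8.47%, beside 4.05% and 5.17%). Thbs1, a secreted protein that can activate latent TGF-beta, differed in direction by class. In platelet or megakaryocyte-like cells it was at 847, 366 and 917 CPM, with MASH over Chow at 0.432 [0.357–0.523] and Phe-free over MASH at 2.503 [2.11–2.97]. In red pulp macrophage-like cells it was at 2.71, 23.8 and 5.19 CPM, with MASH over Chow at 8.76 [5.05–16.4]. Clusters of 5, 12 and 4 and of 2, 8 and 6 cells in this class had Gng11 and Nrgn among their leading genes. These genes also led in platelet or megakaryocyte-like cells, and whether platelet RNA added to the macrophage-like values was not tested. Weighting the macrophage clusters alike gave 16.0 [7.87–32.6] for MASH over Chow and moved Phe-free over Chow from 1.92 [1.002–3.86] to 8.61 [3.51–21.1], both past the limit, and Phe-free over MASH (0.219) became 0.592, no longer past it. Ltbp1, which tethers the latent complex, was at 187, 75.5 and 110.3 CPM in platelet or megakaryocyte-like cells, a MASH over Chow ratio of 0.403 [0.262–0.615]. In red pulp macrophage-like cells its MASH over Chow ratio was 8.35, or 2.15 [0.453–10.2] with clusters weighted alike, no longer past the limit. Nrros, which anchors latent TGF-beta on myeloid cells, was highest in classical monocyte-like cells at 280.5, 273 and 285 CPM with no such difference, and Furin, which cleaves the precursor, in mature neutrophil-like cells at 159, 184 and 143 CPM.

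Receptors and coreceptors gave 7 lower and none higher of 37 pairs for MASH over Chow (18.9% lower, beside 5.70% of all pairs), 6 higher and 1 lower of 38 for Phe-free over MASH (15.8% and 2.63%, beside 3.88% and 3.54%), and 3 higher and 7 lower of 35 for Phe-free over Chow (8.57% and 20%, beside 4.05% and 5.17%). Tgfbr3, the coreceptor betaglycan, alone gave 4 of the 7 lower pairs for MASH over Chow and all 7 for Phe-free over Chow. It was at 12.8, 6.16 and 4.31 CPM in classical monocyte-like cells, with ratios to Chow of 0.479 [0.339–0.673] in MASH and 0.335 [0.232–0.479] in Phe-free. In red pulp macrophage-like cells it was at 7.94, 2.34 and 1.68 CPM, and in NK-like cells at 15.8, 14.9 and 8.91 CPM. Acvrl1, a type I receptor also known as ALK1, was at 29.6, 9.01 and 44.3 CPM in mature neutrophil-like cells, a MASH over Chow ratio of 0.305 [0.199–0.457] that became 0.809 with clusters weighted alike. Transducers and adaptors gave 1 higher and 2 lower of 29 pairs for MASH over Chow (3.45% and 6.9%), none of 29 for Phe-free over MASH, and 2 higher and 1 lower of 28 for Phe-free over Chow (7.14% and 3.57%), beside the same shares of all pairs. Zfyve9, the adaptor that brings Smad2 and Smad3 to the receptor, was highest in the same nonclassical monocyte-like cells as Tgfbr1, at 498, 447 and 482 CPM.

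Target genes of the pathway gave 2 higher and 7 lower of 54 pairs for MASH over Chow (3.70% and 12.96%, beside 4.28% and 5.70% of all pairs), 11 higher and 3 lower of 58 for Phe-free over MASH (19.0% and 5.17%, beside 3.88% and 3.54%), and 6 higher and 7 lower of 56 for Phe-free over Chow (10.7% and 12.5%, beside 4.05% and 5.17%). Tgfbi, a matrix protein raised by TGF-beta, was at 201, 115 and 125 CPM in cDC1-like cells, with ratios to Chow of 0.573 [0.494–0.664] in MASH and 0.623 [0.535–0.725] in Phe-free. It was at 508, 348 and 291 CPM in nonclassical monocyte-like cells and highest in classical monocyte-like cells at 959, 877 and 882 CPM. Cdkn1a, a cell cycle inhibitor that other signals also raise, differed in direction by class, past the limit higher than Chow in 2 classes and lower in 3 in MASH, and higher in 5 and lower in 1 in Phe-free. It was above Chow in classical monocyte-like cells in both libraries (30.85, 50.4 and 48.95 CPM), and in T-like cells in Phe-free (3.08, 3.08 and 6.48 CPM). In MASH it was below Chow in B-like (0.5902 [0.432–0.801]), immature neutrophil-like (0.313 [0.132–0.635]) and red pulp macrophage-like cells (0.344 [0.247–0.474], or 0.490 [0.230–1.04] with clusters weighted alike). In Phe-free it was below Chow in mature neutrophil-like cells (0.573 [0.394–0.834]). B-like cells were among the 5 classes higher in Phe-free, at 1.57. That ratio became 0.84 [0.639–1.105] with clusters weighted alike, no longer past the limit. Ldlrad4, a target that restrains Smad activation, was at 116, 89.5 and 69.3 CPM in NK-like cells, a Phe-free over Chow ratio of 0.5997 [0.511–0.702]. Itgae, the CD103 chain raised by TGF-beta on lymphocytes, was at 188, 182 and 176 CPM in cDC1-like and 226, 186 and 190.0 CPM in regulatory T-like cells.

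Over all 40 further genes, 53 of 286 pairs were past the limit for MASH over Chow, 9 higher (3.15%) and 44 lower (15.4%), beside 4.28% and 5.70% of all pairs. For Phe-free over MASH 33 of 291 were past it, 24 higher (8.25%) and 9 lower (3.09%), beside 3.88% and 3.54%, and for Phe-free over Chow 54 of 281, 14 higher (4.98%) and 40 lower (14.2%), beside 4.05% and 5.17%. With clusters weighted alike 36 of 53, 21 of 33 and 40 of 54 stayed past it. These counts include pairs in plasma-like, classical monocyte-like, nonclassical monocyte-like and platelet or megakaryocyte-like cells. Each of these classes was 1 cluster, so the weighting could not change its ratios and such pairs were bound to stay. Because the 40 genes were chosen with earlier results of these data known, these shares describe the list and test nothing. With 1 library per group the diet, the mouse and the library preparation cannot be told apart.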

How the data were processed

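Spleen cells were captured with a 5′ single-cell kit of 10x Genomics, per the labels' protocols, and the deposited values are whole-number counts of UMIs for each gene in each barcode. The submitters' processing notes name Cell Ranger 9.0.1, Seurat 5.3.0 and the build GRCm39; their roles, the annotation release and any barcode filter are not given in the sources used here. Cells were kept from 300 genes and 500 UMIs upward and up to 10% mitochondrial UMIs, and Scrublet (in scanpy 1.11.5) removed 315 Chow, 318 MASH and 304 Phe-free cells as doublets. Cells were clustered (2000 variable genes, 30 principal components, 15 neighbours, Leiden resolution 1.0) and clusters were named from marker lists. Clusters of mixed markers (256, 224 and 158 cells) and unnamed clusters (690, 1421 and 687) were left out of the classes. Counts were summed per class and library. Levels have exact Poisson intervals and ratios exact conditional binomial intervals, both at 95%. UMIs of one cell are not independent draws, so the intervals are too narrow for a difference between groups.

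A pair of gene and class was past the limit at 1.5-fold either way, with an interval off 1 and at least 20 UMIs in the libraries compared. The limit was tried on simulated Poisson counts, which hold counting error alone. They hold no variation between cells, mice or libraries, so the trial says nothing on differences between groups. The 8 genes are all reported. Pathway genes are named when past the limit with at least 50 UMIs or at their highest class. The members and lists were chosen with earlier results of these data known. Alternatives covered the cell filter, doublets, clustering, class definition, denominator, low-count limit and fold limit, and 3 more were added after seeing the data: leaving out early erythroid-like cells, taking them from their deeper cluster alone, and dividing by the median ratio of all genes.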

Additional observations from a re-analysis of the deposited data

How the results depend on the processing

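Of 19 ratios past the limit, each recomputed under 7 settings, 101 of 133 values were still past it. Of the 133 values, 120 lay inside the interval of the reported ratio, 8 moved outside it and 5 reversed. A wide interval also holds values far from the reported one. Smad2 in plasma-like cells ran from 0.564 to 0.875 for MASH over Chow without leaving its interval. Tgfbr1 in classical monocyte-like cells stayed past the limit in all 7, at 0.535 to 0.581 for MASH over Chow and 0.553 to 0.612 for Phe-free over Chow, as did Ski in immature neutrophil-like cells (log2 -0.74 to -0.62). Classical monocyte-like cells were 1 cluster in every library, so weighting clusters alike, a setting among the 7, could not change their ratios. The reversed values were all in early erythroid-like cells with clusters weighted alike: on the log2 scale Tgfbr1 became 0.34 in MASH over Chow; Tgfbr1 (0.42), Tgfbr2 (0.46) and Smad4 (0.14) reversed in Phe-free over Chow, and Smad3 became 0.23 for Phe-free over MASH. This setting gives more weight to the shallow cluster, where Chow held 0 Tgfbr1, 2 Tgfbr2 and 1 Smad4 UMIs and MASH 3 Smad3 UMIs, and in the deeper cluster each kept the reported direction.

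The count of 8 pairs for MASH over Chow became 4 with clusters weighted alike, 4 with cells chosen on markers, 19 at the lower fold limit, 3 at a limit of 2 and 5 without early erythroid-like cells. The count of 10 for Phe-free over Chow became 4 with clusters weighted alike, 25 at the lower limit, 1 at 2 and 5 without early erythroid-like cells. The count of 1 for Phe-free over MASH became 0 under the stricter cell filter, with clusters weighted alike, with doublets kept, at resolution 2.0, at a limit of 2 and without early erythroid-like cells, and 7 at the lower limit. With early erythroid-like cells taken from their deeper cluster alone these 3 counts were 8, 11 and 1, in the same order. The cause was not tested, apart from what each setting leaves out. Classes with Tgfbr1 below Chow numbered 11 or 12 in MASH and 9 to 13 in Phe-free over all settings. No paired analysis was possible because each group had 1 library and the labels carry no replicate numbers. Depth limits the platelet or megakaryocyte-like class most, where Smad3, Smad7 and Ski had under 20 UMIs in some comparisons.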

Other observations

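Classes with fewer than 50 cells in a library are given as values only. Plasmacytoid dendritic cell-like cells (33, 28 and 48 cells), the main interferon producers of the spleen, held Tgfbr1 at 320.1, 296 and 251 CPM and Tgfb1 at 227, 239 and 243 CPM. Their Tgfbr1 interval in Chow was 269 to 378 CPM. Basophil-like cells (46, 40 and 34 cells) held Tgfb1 at 245, 257 and 262 CPM and Tgfbr1 at 43.8, 49.1 and 55.9 CPM. Progenitor-like cells (77, 33 and 219 cells) held Tgfb1 at 250.2, 275 and 257 CPM and Tgfbr2 at 25.1, 26.2 and 19.4 CPM. Late erythroid-like cells (23, 632 and 142 cells) held Tgfb1 at 60.7, 42.7 and 60.97 CPM, below the early erythroid-like cells, and Tgfbr1 at 5.51, 9.52 and 7.13 CPM. Eosinophil-like cells (15, 49 and 13 cells) rested on at most 33 UMIs of any member, and held Smad2 at 144, 154 and 205 CPM and Ski at 217, 41.98 and 51.4 CPM. Stroma or endothelium-like cells (25, 21 and 20 cells) held Ski at 106, 79.3 and 21.4 CPM, from 12, 16 and 4 UMIs, and Tgfbr2 at 132, 178 and 149.7 CPM.

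Over all cells of a library, without regard to class, Tgfb1 was at 138.7, 139.4 and 146 CPM, while Tgfbr1 was at 79.1, 55.3 and 54.9 CPM and Tgfbr2 at 161, 140.0 and 107 CPM. Smad7 was at 44.6, 34.8 and 25.8 CPM and Ski at 31.0, 23.8 and 18.9 CPM. B-like cells, the class with the highest Tgfbr2 level, numbered 5380, 4906 and 3933, and T-like cells, the highest for Smad7 and Ski, numbered 3193, 2805 and 2254. The part of these cell numbers in the totals was not tested. Tgfb2 and Tgfb3, the other TGF-beta ligands, were at most 0.58 and 0.87 CPM in any library.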
